A study of Mus musculus with 10 samples.

Results

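The guanylate-binding proteins (GBPs) are large GTPases of the dynamin superfamily that interferons, above all interferon gamma, switch on, in part through the transcription factor Irf1. They assemble on the membranes of vacuoles and bacteria inside the cell, help to break these open, and feed microbial products to inflammasomes, the complexes that activate inflammatory caspases. In mice they are made mainly by macrophages, dendritic cells and other cells exposed to interferon, and the genes lie in a cluster on each of chromosomes 3 and 5. The set described here is the 10 genes Gbp2 to Gbp11, taken by symbol from the 38215 genes of the deposited table. A further family gene in that table, Gbp1, lies inside the chromosome 3 cluster and is given beside the set where a value bears on it.

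RNA was measured in acute myeloid leukaemia cells of mice. The leukaemia came from lineage-depleted bone marrow transduced with a retrovirus that carried GFP and expressed the fusion oncogene AML1-ETO and the mutant Nras G12D, both of which every library shares. It was grown in Rag2-/-γc-/- primary recipients, which lack T, B and NK cells, and its GFP+ spleen cells were then given to 5 C57BL/6J recipients with an intact immune system (libraries 1, 3, 4, 5 and 6) and to 5 Rag2-/-γc-/- recipients (libraries 7 to 11). The comparison asks how growth under an intact immune system changed the transcriptome of GFP+ splenocytes at leukaemia. The sources used here give neither the age and sex of the recipients nor the number of primary leukaemias. The p-values therefore cover the spread from one recipient to another only. The libraries of C57BL/6J recipients held 32703932 to 44097690 expected counts, and those of Rag2-/-γc-/- recipients 28157745 to 62461126. Libraries 10 and 11 stand apart from 7, 8 and 9 within the Rag2-/-γc-/- group: leaving out 10 and 11 raised the number of genes called over the whole table from 464 higher and 624 lower to 2786 and 2518, and leaving out 7, 8 and 9 brought it to 148 and 127. Where a Gbp gene, or a gene named from the pathway lists as called, changes its call without one of these sets, the value is given.

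On the build GRCm38, as the deposited table gives it, 4 of the 10 genes lie on the plus strand of chromosome 3 within 141.1 kb, in the order Gbp5 (chr3:142496934-142522344), Gbp7 (chr3:142530338-142550083), Gbp3 (chr3:142560052-142573209) and Gbp2 (chr3:142620602-142638008). The other 6 lie on the minus strand of chromosome 5 within 332.3 kb. They are Gbp8 (chr5:105014153-105139540), Gbp9 (chr5:105078394-105139539), Gbp4 (chr5:105115767-105139586), Gbp10 (chr5:105215699-105239533), Gbp6 (chr5:105270704-105293699) and Gbp11 (chr5:105323042-105346472), the last annotated as a polymorphic pseudogene. The table draws Gbp4, Gbp8 and Gbp9 over one another on the same strand with almost the same 5′ end, so reads in that shared part could have been given to any of the 3. In GENCODE M21 transcripts, 3.08% of the 75-base stretches of Gbp4, 8.04% of Gbp8 and 3.61% of Gbp9 also occur in other genes.

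The RefSeq promoter table for GRCm38.p6 (250 bases before to 50 after each start) held 4 of the 10 genes, all on chromosome 3. Elements through which interferons act were searched on both strands: the interferon-stimulated response element (ISRE), made of GAAA, any 2 bases and GAAA again, which reads TTTC, any 2 bases and TTTC on the other strand, and the gamma-activated site (GAS), spelled TTCNNNGAA. Each of the 4 genes had an ISRE match in at least 1 promoter of the table, where 3.44% of all 32851 promoters held one. Gbp3 has a second start in the table, whose promoter held no match. The stretches around it are shown because these are the 4 neighbouring genes whose levels are compared below. They are 30 bases of the plus strand, 5′ to 3′, with the ISRE match in capitals. Gbp5 is at chr3:142496759-142496788, Gbp7 at chr3:142530273-142530302, Gbp3 at chr3:142559992-142560021 and Gbp2 at chr3:142620594-142620623.
Gbp5: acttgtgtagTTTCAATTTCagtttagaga
Gbp7: gtgtgtgcagTTTCAGTTTCagttctccat
Gbp3: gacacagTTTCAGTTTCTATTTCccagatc
Gbp2: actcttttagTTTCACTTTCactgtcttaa
The capitals begin 165, 53, 45 and 59 bases before the RefSeq start of Gbp5, Gbp7, Gbp3 (its first start in the promoter table, chr3:142560044) and Gbp2. The RefSeq gene entry of Gbp3 begins earlier, at chr3:142560016, just after its capitals, which end at chr3:142560014. The deposited table starts Gbp2 earlier, at chr3:142620602, so by that annotation its match (chr3:142620604-142620613) lies inside the gene. Gbp3 holds 2 overlapping matches in this stretch.

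Of the 4 genes, Gbp5 and Gbp7 alone had GAS matches, 2 in each promoter, against 8.3% of all promoters in the table with at least 1. Both kinds of match occurred together in 0.45% of all promoters. For these 2 genes the promoter before the RefSeq start is shown, cut at the first base of any annotated exon within it. Every ISRE and GAS match in it is in capitals. The stretches are chr3:142496684-142496899 for Gbp5 and chr3:142530086-142530335 for Gbp7. The GENCODE M21 annotation starts Gbp5 further upstream, at chr3:142493978, so the Gbp5 stretch lies after that start.
Gbp5: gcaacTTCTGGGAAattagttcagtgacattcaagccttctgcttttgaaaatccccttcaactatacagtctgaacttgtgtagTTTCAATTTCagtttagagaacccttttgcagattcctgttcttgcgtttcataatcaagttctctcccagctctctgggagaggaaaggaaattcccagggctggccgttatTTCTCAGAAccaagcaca
Gbp7: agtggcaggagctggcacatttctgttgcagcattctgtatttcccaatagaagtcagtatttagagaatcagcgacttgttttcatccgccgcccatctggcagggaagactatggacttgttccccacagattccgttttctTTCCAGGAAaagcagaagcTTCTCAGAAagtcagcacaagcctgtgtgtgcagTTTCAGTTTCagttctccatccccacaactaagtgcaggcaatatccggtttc
A match is a description of these letters, and no factor was measured on this DNA.

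The family fell into genes with very different behaviour between the recipients. Gbp2, Gbp3, Gbp5 and Gbp6 were called higher in C57BL/6J recipients, by 6.99- to 16.5-fold. Gbp4, Gbp7, Gbp8 and Gbp9 were above the filter on low counts in every library of both groups and did not pass the test. Gbp10 and Gbp11 had too few counts to be tested. None of the 8 tested members was called lower. Over all 13966 genes tested, 3.32% were called higher, 4.47% lower and 0.673% higher by more than 4-fold. The filter on low counts asked for 0.253 CPM (counts scaled to library size) in 5 libraries. It was applied before the TMM factors, which the CPM values given for genes include. All 5 C57BL/6J libraries reached that level for each tested member, but only 2 to 4 of the 5 Rag2-/-γc-/- libraries did so for Gbp2, Gbp3, Gbp5 and Gbp6. Those 4 thus entered the test through the group in which they were high, and their number is a description of the family, not support for it.

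**Figure D1:**
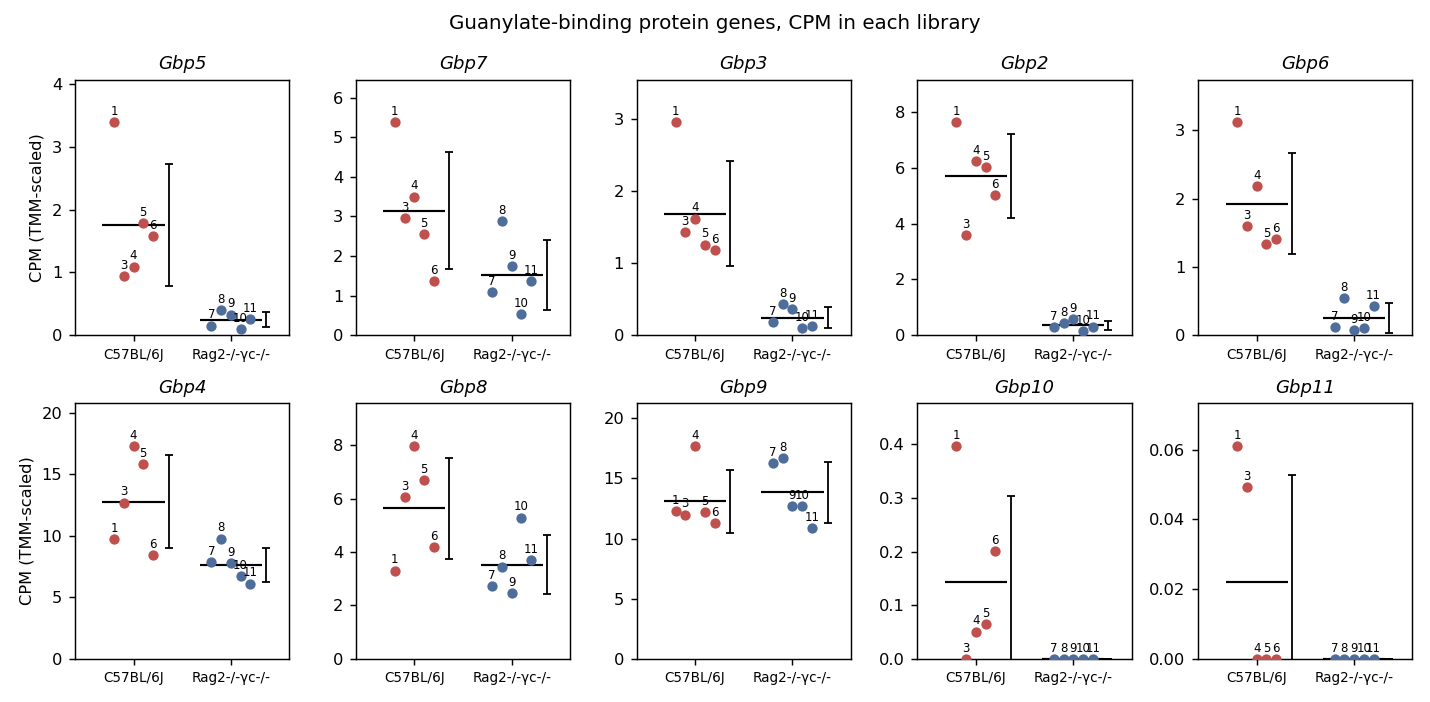
TMM-scaled CPM of each of the 10 genes (y axis, linear, a scale of its own for each gene) in the 5 C57BL/6J (red) and 5 Rag2-/-γc-/- libraries (blue). Points carry library numbers, the horizontal line is the group mean and the bar the SD, drawn only above 0. The groups do not overlap for Gbp2, Gbp3, Gbp5 and Gbp6, and they overlap for Gbp4, Gbp7, Gbp8 and Gbp9.

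Gbp2 carries a lipid anchor and gathers on the vacuoles of Toxoplasma. It was at 7.64, 3.58, 6.24, 6.03 and 5.03 CPM in C57BL/6J libraries 1, 3, 4, 5 and 6 and at 0.288, 0.426, 0.579, 0.131 and 0.304 CPM in Rag2-/-γc-/- libraries 7 to 11. The lowest C57BL/6J library thus lay well above the highest Rag2-/-γc-/- one. The means were 5.70 ± 1.51 and 0.345 ± 0.167 CPM (SD, n = 5 each), a 16.5-fold difference with a log2 fold change of 4.05 ± 0.34 (SE) and an adjusted p of 7.37e-05 in edgeR's quasi-likelihood test with Benjamini-Hochberg adjustment. These are values of whole sorted samples, in which fewer cells of a type and less RNA per cell cannot be told apart.

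Gbp5, a GBP known for promoting assembly of the Nlrp3 inflammasome, had 3.39, 0.938, 1.09, 1.78 and 1.58 CPM in the C57BL/6J libraries in the same order. In the Rag2-/-γc-/- libraries it had 0.153, 0.402, 0.326, 0.098 and 0.253 CPM. The groups did not overlap, and C57BL/6J library 1 was the highest by a wide margin. The log2 fold change was 2.82 ± 0.45 (SE, 7.07-fold, edgeR adjusted p = 0.00354). Without Rag2-/-γc-/- libraries 7, 8 and 9 it was 3.26, and the call was lost (adjusted p = 0.0563).

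Gbp3, between Gbp7 and Gbp2 in the cluster, was at 2.96, 1.43, 1.62, 1.26 and 1.18 CPM in C57BL/6J recipients and at 0.186, 0.426, 0.362, 0.098 and 0.126 CPM in Rag2-/-γc-/- recipients. Library 1 was again the highest, and the groups did not overlap. The log2 fold change was 2.81 ± 0.43 (SE, 6.99-fold, edgeR adjusted p = 0.00266).

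Gbp6 was the one tested gene on chromosome 5 that passed. It was at 3.12, 1.6, 2.18, 1.33 and 1.41 CPM in C57BL/6J libraries and at 0.119, 0.544, 0.0724, 0.098 and 0.430 CPM in Rag2-/-γc-/- libraries, without overlap. Its log2 fold change was 2.88 ± 0.52 (SE, 7.36-fold, edgeR adjusted p = 0.00704), and without Rag2-/-γc-/- libraries 7, 8 and 9 it was 2.81 (adjusted p = 0.0623). Of all 75-base stretches of Gbp6 transcripts in GENCODE M21, 67.33% also occur in other genes. The partners are Gm43302 (61.72%), which is not among the symbols of the deposited table, and Gbp10 (40.37%). The level printed for Gbp6 can therefore include reads of its copies. With Gbp6 and Gbp10 summed, an alternative added after seeing the data, the change was still called. Gbp10 added only 26 rounded counts in C57BL/6J libraries and 0 in the others, and Gm43302 could not be added. The sum therefore cannot settle how reads were shared among the copies. Groups without overlap, higher in C57BL/6J recipients, made up 4.13% of all genes tested, and 4.37% were without overlap in the other direction.

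Gbp10, the near copy of Gbp6, and Gbp11 were detected in C57BL/6J recipients alone. Gbp10 had 0.397, 0, 0.0507, 0.0653 and 0.201 CPM there, from 26 rounded counts in 4 libraries, against 0 counts in all 5 Rag2-/-γc-/- libraries. Its level was 8.69-fold a floor of 3 counts over the whole Rag2-/-γc-/- group (0.0151 CPM). For Gbp10, 77.75% of the 75-base stretches occur in other genes, chiefly Gm43302 and Gbp6, so the split between these genes is uncertain. Gbp11 had 4 counts, in C57BL/6J libraries 1 and 3, which is 1.34-fold the same floor. Counts this few cannot tell a difference from none (edgeR adjusted p = 0.286 with no filter on counts). Gbp1, beside Gbp2 on chromosome 3, had 19 counts over all 5 C57BL/6J libraries and 0 in the other group, 6.35-fold the same floor. Such a floor allows for counting error in the Rag2-/-γc-/- group only. It does not cover that of the C57BL/6J counts or the spread between recipients.

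Gbp7 has been linked to autophagy and to delivery of the phagocyte oxidase to vacuoles. It lies between Gbp5 and Gbp3. It was at 5.38, 2.96, 3.50, 2.55 and 1.36 CPM in C57BL/6J libraries and at 1.08, 2.89, 1.74, 0.523 and 1.37 CPM in Rag2-/-γc-/- libraries. C57BL/6J library 6 lay at the level of Rag2-/-γc-/- library 11, and the groups overlapped. The log2 fold change of 1.04 ± 0.44 (SE) did not pass (edgeR adjusted p = 0.163). Gbp7 was thus well above the filter in every library of both groups, unlike its neighbours on either side.

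Gbp4, Gbp8 and Gbp9 overlap in the annotation and had the highest length-scaled levels of the family in Rag2-/-γc-/- recipients. This grouping was chosen after their values were seen. Gbp4 was at 9.74, 12.7, 17.3, 15.8 and 8.40 CPM in C57BL/6J recipients and at 7.87, 9.77, 7.78, 6.73 and 6.12 CPM in Rag2-/-γc-/- recipients, with overlap through Rag2-/-γc-/- library 8. Its log2 fold change of 0.74 ± 0.21 (SE) lay just beyond the threshold (edgeR adjusted p = 0.0539) and passed in 6 of 22 alternative settings. Leaving out C57BL/6J library 1 gave 0.82 (adjusted p = 0.0424), and leaving out library 6 gave 0.86 (adjusted p = 0.0343).

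Gbp8 was at 3.30, 6.05, 7.97, 6.70 and 4.18 CPM in C57BL/6J libraries and at 2.73, 3.45, 2.46, 5.29 and 3.69 CPM in Rag2-/-γc-/- libraries. Here C57BL/6J library 1 was the lowest of its group and Rag2-/-γc-/- library 10 the highest of its own, the reverse of their places for Gbp2. The log2 fold change was 0.68 ± 0.27 (SE, edgeR adjusted p = 0.149), and it passed without Rag2-/-γc-/- library 10 (0.87, adjusted p = 0.0466) and without libraries 10 and 11 (0.97, adjusted p = 0.0261).

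Gbp9 had the highest mean CPM of the family. It was at 12.3, 12, 17.7, 12.2 and 11.3 CPM in C57BL/6J recipients and at 16.3, 16.7, 12.7, 12.7 and 10.9 CPM in Rag2-/-γc-/- recipients. The groups lay over one another, with a log2 fold change of -0.08 ± 0.16 (SE) and an edgeR adjusted p of 0.767. It turned to 0.16 without Rag2-/-γc-/- libraries 7, 8 and 9 (adjusted p = 0.843).

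**Figure D2:**
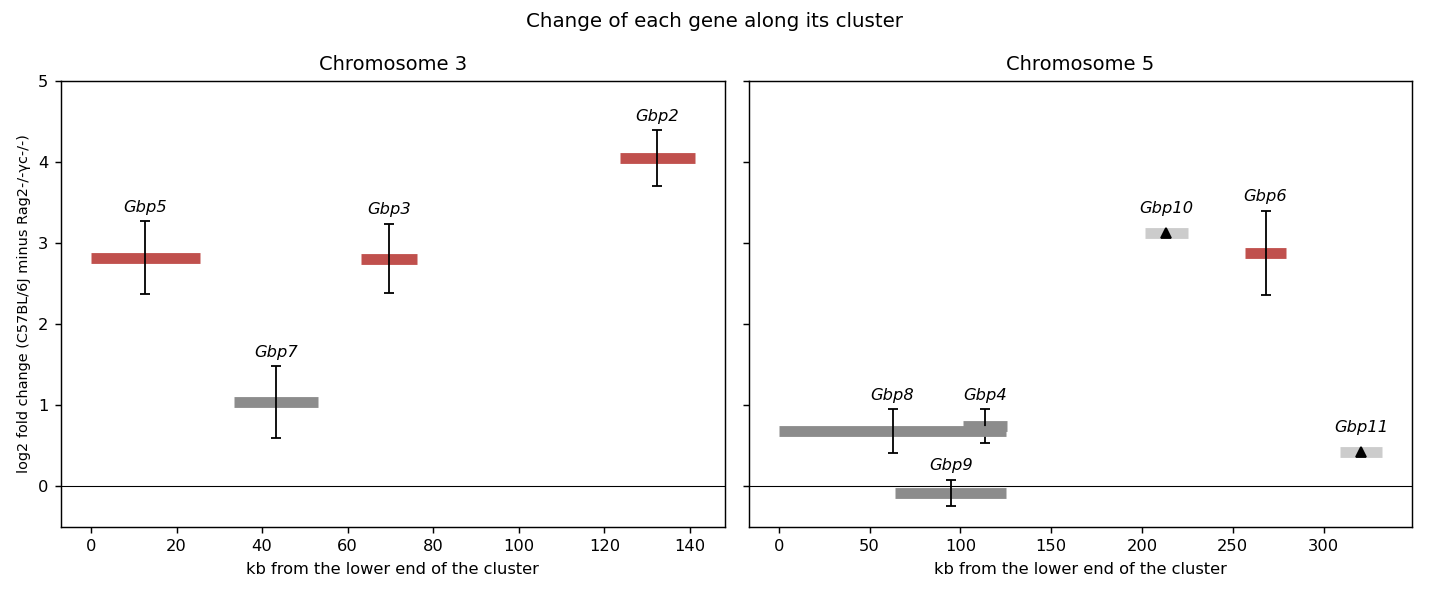
Log2 fold change of each gene (y axis, C57BL/6J minus Rag2-/-γc-/-) against its position in kb from the lower end of its cluster, chromosome 3 on the left and chromosome 5 on the right. Bars span the gene as annotated, whiskers are SE, red bars passed the test and grey ones did not. Triangles set the untested Gbp10 and Gbp11 against a floor of 3 counts over the Rag2-/-γc-/- group. Gbp7 at 1.04 lies between Gbp5 at 2.82 and Gbp3 at 2.81, and Gbp4, Gbp8 and Gbp9 overlap on the left of the chromosome 5 panel.

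Of the nearest tested protein-coding genes on either side of the clusters, 1 of 4 was called. Beside the chromosome 3 cluster, Pdlim5 at 101 kb had a log2 fold change of -0.30 (edgeR adjusted p = 0.164) and Ccbl2, at 63 kb on the other side, 0.16 (adjusted p = 0.758). Beside the chromosome 5 cluster, the transporter gene Abcg3 at 31.4 kb was at 0.81 (adjusted p = 0.24). Lrrc8b, which encodes a subunit of a volume-regulated anion channel, lies 69.3 kb beyond Gbp11 and was lower in C57BL/6J recipients (-1.01, adjusted p = 0.0263).

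Levels can be compared between genes only per length. Counts divided by exonic length in GENCODE M21 and scaled to the same sum in every library (TPM) are used for this. The split between Gbp4, Gbp8 and Gbp9 depends in part on how their shared reads were divided. Of their 75-base stretches, 3.08%, 8.04% and 3.61% occur in other genes. In Rag2-/-γc-/- recipients Gbp9 led with 7.17 ± 1.17 TPM (SD, n = 5), followed by Gbp8 with 2.77 ± 0.938 and Gbp4 with 2.74 ± 0.470. Gbp7 came next with 0.727 ± 0.426 TPM. Gbp2 (0.367 ± 0.175), Gbp3 (0.196 ± 0.119), Gbp6 (0.116 ± 0.101) and Gbp5 (0.0998 ± 0.0506) followed. The ranges of Gbp8 and Gbp4 overlapped, as did those of neighbours from Gbp7 downwards, while the lowest Gbp9 library (5.90 TPM) was above the highest of Gbp8 (4.22 TPM).

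In C57BL/6J recipients the order was Gbp9 with 6.96 ± 1.54 TPM (SD, n = 5), Gbp2 with 6.21 ± 1.66, Gbp4 with 4.72 ± 1.58 and Gbp8 with 4.53 ± 1.66. Each of these 4 overlapped its neighbours in the order. Gbp7 (1.53 ± 0.689 TPM), Gbp3 (1.41 ± 0.573), Gbp6 (0.882 ± 0.322) and Gbp5 (0.721 ± 0.384) came next and overlapped one another in the same way, and the highest Gbp7 library met the lowest of Gbp8 at 2.53 TPM. Gbp2 thus moved from the fifth place to the second, beside Gbp9.

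The 10 genes together came to 28.3, 23.2, 34.2, 29.7 and 20.1 TPM in C57BL/6J libraries 1, 3, 4, 5 and 6, against 13.7, 17.6, 12.9, 14.0 and 12.7 TPM in Rag2-/-γc-/- libraries 7 to 11. The means were 27.1 ± 5.54 and 14.2 ± 1.97 TPM (SD, n = 5 each). Gbp4, Gbp8 and Gbp9 supplied 89.5 ± 4.64% of the family's TPM in Rag2-/-γc-/- recipients and 59.8 ± 9.68% in C57BL/6J recipients. The share was lowest in C57BL/6J library 1 (43.4%) and highest in Rag2-/-γc-/- library 10 (96.0%). The 4 chromosome 3 genes summed to 9.88 ± 2.96 against 1.39 ± 0.723 TPM.

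**Figure D3:**
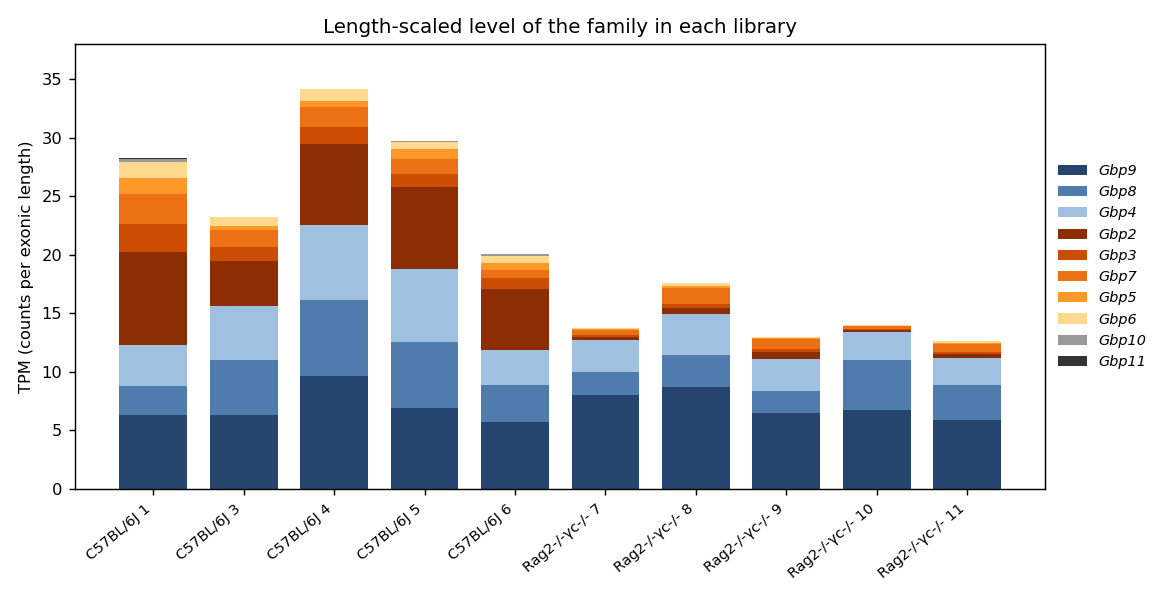
Length-scaled level (y axis, TPM, linear from 0) of the 10 genes stacked for each of the 10 libraries (x axis). Blue shades are Gbp9, Gbp8 and Gbp4, and brown to yellow shades are Gbp2, Gbp3, Gbp7, Gbp5 and Gbp6. The blue part makes up 85.2 to 96.0% of each Rag2-/-γc-/- bar and 43.4 to 67.2% of each C57BL/6J bar.

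Ratios of CPM within a library do not depend on its scaling. Gbp2 was at 0.281 to 0.784 of Gbp4 in C57BL/6J recipients and at 0.0194 to 0.0744 of it in Rag2-/-γc-/- recipients. Relative to Gbp9 it was at 0.298 to 0.619 and 0.0103 to 0.0457. Relative to its neighbour Gbp7 it was at 1.21 to 3.70 and 0.148 to 0.333. None of these 3 ranges overlapped between the groups. Gbp2 itself did not overlap (3.58 to 7.64 against 0.131 to 0.579 CPM), so these ranges are not separate evidence of its difference. Gbp4 itself was at 0.744 to 1.29 of Gbp9 in C57BL/6J recipients and at 0.481 to 0.614 in Rag2-/-γc-/- recipients, again without overlap. The ratios of Gbp8 to Gbp9 (0.267 to 0.549 against 0.167 to 0.415) and of Gbp7 to Gbp4 (0.161 to 0.552 against 0.0777 to 0.295) overlapped. These ratios describe the chosen pairs alone and do not say which of the 2 genes moved. How often the ratios of other gene pairs lie without overlap was not tested.

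Among libraries of the same group, some members varied together. After removal of the group means, Pearson's r of log2 CPM over the 10 libraries was 0.79 for Gbp2 with Gbp3, 0.81 for Gbp2 with Gbp5, 0.87 for Gbp3 with Gbp7 and 0.73 for Gbp2 with Gbp7. Gbp8 ran the other way, with r of -0.57 against Gbp2 and -0.67 against Gbp5. Gbp4 had r = 0.73 with Gbp9 and 0.48 with Gbp8. These values are descriptions, and both genes of a pair come from the same libraries and so share their depth and scaling.

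Over all 10 libraries, the 6 annotated genes outside the family with a log2 CPM most like that of Gbp2, out of 9034 with a mean of at least 5 CPM, were Prelid2 (r = 0.976), Iigp1 (0.976), Pax3 (0.970), Tgtp2 (0.969), Gnb4 (0.968) and Pla2g16 (0.968). Within the groups these r were 0.29 to 0.61, so most of the likeness was the difference between recipients. Iigp1 and Tgtp2 are immunity-related GTPases (IRGs), which work with GBPs on vacuoles. Pax3 is a developmental transcription factor, and Gnb4 a G protein subunit. The 6 genes most like Gbp9 were Cdkn1b (r = 0.896), Upf3b (0.858), Ccng2 (0.845), Mical3 (0.833), Luc7l2 (0.814) and Lmbr1l (0.814), none of which was called between recipients. Cdkn1b encodes the cell cycle inhibitor p27.

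The other genes of the pathway were taken from 9 lists, of which each is described by its counts beside the 3.32% and 4.47% of all genes called higher and lower and their median log2 fold change of 0. Interferon gamma itself, Ifng, had 2, 12, 2, 2 and 3 counts in C57BL/6J libraries 1, 3, 4, 5 and 6. It had 0 in all Rag2-/-γc-/- libraries, and its level in C57BL/6J recipients was 7.02-fold the floor of 3 counts. All 10 interferon genes listed stayed under the filter. The receptor chains Ifngr1 and Ifngr2 were at log2 fold changes of 0.03 and -0.08, with 418 ± 75.9 against 410 ± 26.7 CPM (SD, n = 5 each) for Ifngr1. The kinase Jak2 was at -0.30.

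Of 23 genes of interferon receptors and signalling, 3 rose, 3 fell and the median was -0.17. With 1 library omitted, 5 rose where it was 1, and 1 fell where it was 3, 5, 6, 7, 8 or 9. Irf1, a transcription factor that acts at GBP promoters, had 81.6 to 125 CPM in C57BL/6J libraries and 53.5 to 79.8 CPM in Rag2-/-γc-/- libraries. Its log2 fold change was 0.68 ± 0.14 (SE), with an edgeR adjusted p of 0.0146. Batf2, a transcription factor induced by interferon gamma, differed by 1.01 ± 0.15 (SE, edgeR adjusted p = 0.00187). Neither overlapped between groups. Without Rag2-/-γc-/- libraries 7, 8 and 9, Irf1 was at 0.57 (adjusted p = 0.187), and Batf2 kept the call (1.16, adjusted p = 0.0272).

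The genes that fell in that list were Ifnar2, a chain of the type I interferon receptor (-0.54, edgeR adjusted p = 0.00858), the kinase Jak1 (-0.48, adjusted p = 0.0379) and Usp18, a brake on type I signalling (-0.88, adjusted p = 0.0461). When 1 library was left out at a time, Jak1 kept the call only where the omitted library was 1, 10 or 11, and Usp18 only where it was 4, 10 or 11. All 3 lost it without Rag2-/-γc-/- libraries 7, 8 and 9 (adjusted p = 0.17, 0.547 and 0.371 for Ifnar2, Jak1 and Usp18). Irf8 (0.61, adjusted p = 0.0706), the feedback inhibitor Socs1 (0.63, adjusted p = 0.0637), Irf9 (-0.05) and Stat2 (-0.24) did not pass.

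Among 14 tested IRGs, 3 rose and none fell, with a median of 0.16. With 1 library omitted, 6 rose where it was 1 and 5 where it was any from 7 to 11, and 1 fell where it was 10 or 11. Iigp1, which with GBPs coats the vacuole of Toxoplasma, was at 12.7 to 24.7 CPM in C57BL/6J recipients and at 0.131 to 1.16 CPM in Rag2-/-γc-/- recipients (log2 fold change 5.10 ± 0.44, edgeR adjusted p = 8.75e-05). Gm4951 differed by 4.27 ± 0.42 (adjusted p = 0.000217) and Tgtp2 by 0.82 ± 0.10 (adjusted p = 0.000602). Some Rag2-/-γc-/- libraries were below the filter's 0.253 CPM for Iigp1 and for Gm4951, which was at 0.0653 to 0.362 CPM there. Iigp1 and Gm4951 thus also entered the test through the group in which they were high, and the number of IRGs that rose is a description. The regulators Irgm1 and Igtp, which keep GBPs off the cell's own membranes, were at 0.16 and 0.08 with levels of 16.9 CPM or more in every library. Gm12185 (0.67, adjusted p = 0.129) and Gm12250 (0.44, adjusted p = 0.237) did not pass. Of 6 tested large GTPases of other families, among them the Mx genes and Gvin1, none passed, with a median of -0.14. The smallest p was that of Gm4070 (0.45, unadjusted p = 0.0193).

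**Figure D4:**
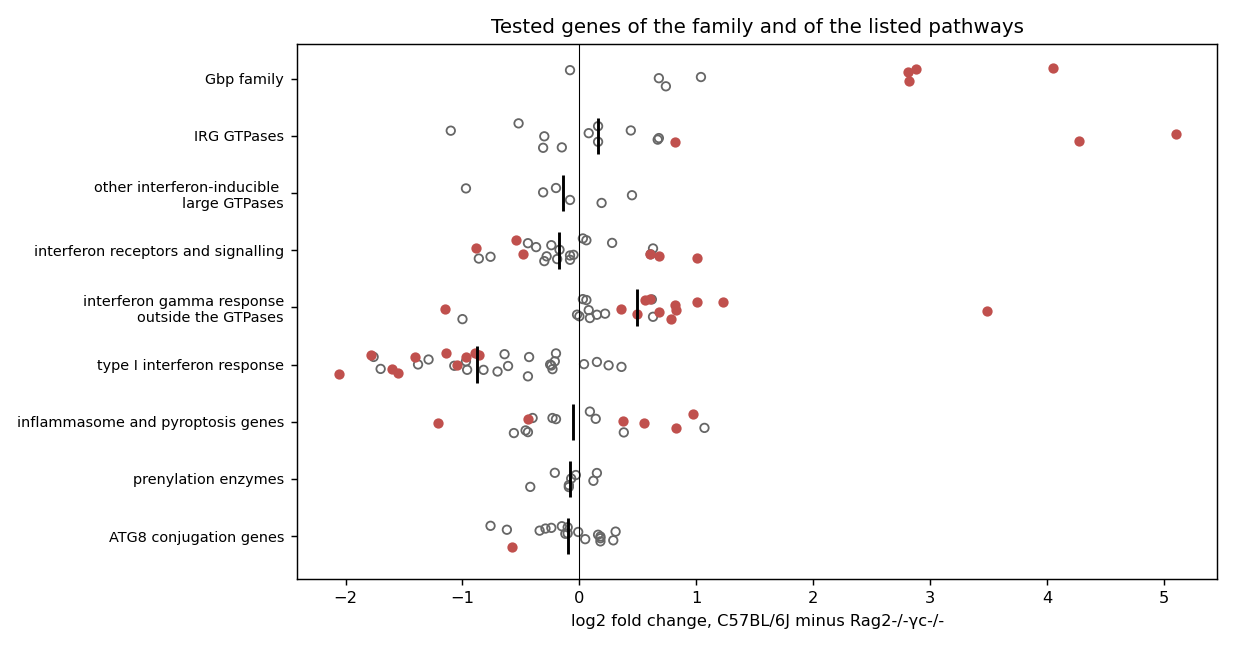
Log2 fold change (x axis, C57BL/6J minus Rag2-/-γc-/-) of the tested genes of the family and of 8 pathway lists (rows). Filled red points passed the test, open points did not, and black bars are list medians, left out for the family. The called Gbp genes (2.81 to 4.05) share the right of the plot with Iigp1 (5.10), Gm4951 (4.27) and Upp1 (3.49), while the type I interferon list lies to the left with a median of -0.87.

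The interferon gamma response outside the GTPases and the type I interferon response went different ways. Of 23 tested genes of the first list 11 rose and 1 fell, with a median of 0.49. Of 32 of the second list none rose and 10 fell, with a median of -0.87. Upp1, an enzyme of uridine breakdown, rose by 3.49 ± 0.36 (SE, edgeR adjusted p = 0.000249). The chemokine Cxcl9 had 54.1 to 107 CPM in C57BL/6J recipients and 23.5 to 47.4 CPM in Rag2-/-γc-/- recipients (1.23 ± 0.25, edgeR adjusted p = 0.0133). Batf2 and Irf1, given above, stand in this list too. Cxcl10, a related chemokine, fell by 1.15 (adjusted p = 0.0379), a call lost without Rag2-/-γc-/- libraries 7, 8 and 9 (adjusted p = 0.484). Among the type I genes that fell, Ifi27l2a was at -0.97 (adjusted p = 0.00948), the antiviral sensor Oas1a at -1.78 (adjusted p = 0.0158), Xaf1 at -1.14 (adjusted p = 0.0251) and Lgals3bp at -0.89 (adjusted p = 0.0284). Without Rag2-/-γc-/- libraries 7, 8 and 9 none of these 4 passed (adjusted p = 0.0802, 0.17, 0.366 and 0.541 in that order). Over the alternative settings, 3 to 14 genes of the first list were called higher and 0 to 24 of the second list lower. With 1 library omitted, the first count was 5 where it was 6, 8 or 9 and 7 where it was library 7, and the second was 2 or 3 unless it was 4, 10 or 11. With single libraries left out, Cxcl10 kept the call only where this was 1, 4, 10 or 11, Xaf1 where it was 4, 7, 10 or 11 and Lgals3bp where it was 4, 10 or 11, while Upp1, Cxcl9, Ifi27l2a and Oas1a kept it in all 10.

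Genes on which GBPs act were mixed. Of 16 tested inflammasome and pyroptosis genes, 4 rose, 2 fell and the median was -0.06. The number that rose was 2 with library 3, 4, 6, 8 or 9 omitted. Zbp1, a sensor of nucleic acids and an interferon target, rose by 0.83 ± 0.14 (SE, edgeR adjusted p = 0.0042). Casp1, the inflammatory caspase, rose from 4.15 ± 1.23 to 8.12 ± 1.21 CPM (SD, n = 5 each, adjusted p = 0.0153). The cytokine Il1a (0.55, adjusted p = 0.0401) and the inflammasome adaptor Pycard (0.37, adjusted p = 0.0415) were the other genes that rose. Il1a lost the call in 5 of 10 fits with 1 library omitted, Pycard in 7, and both without libraries 7, 8 and 9 (adjusted p = 0.27 and 0.21). Casp4, the sensor of lipopolysaccharide that GBPs feed, was at 1.07 (adjusted p = 0.128), and the DNA sensor Aim2 at 0.14 (adjusted p = 0.464). Casp8 fell by 0.44 (adjusted p = 0.0216). Il18, a cytokine that Casp1 matures, fell by 1.21 (adjusted p = 0.0471). With 1 library omitted, Casp8 lost the call where it was 5, 7 or 8, and Il18 kept it only where it was 1, 4 or 10. With libraries 7, 8 and 9 all omitted, both calls were lost (adjusted p = 0.173 and 0.357), and those of Casp1 and Zbp1 were kept (adjusted p = 0.0207 and 0.0363).

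Enzymes that attach or trim the lipid anchor of prenylated GBPs did not pass in any of 8 cases, with a median of -0.08 and the smallest p for Fntb (-0.42, unadjusted p = 0.0154). Of 18 genes of ATG8 conjugation, the autophagy machinery that steers GBPs to vacuoles, Sqstm1 alone was called (-0.58, edgeR adjusted p = 0.0371), and it kept the call only where the 1 library omitted was 1, 10 or 11, and lost it without libraries 7, 8 and 9 (adjusted p = 0.505).

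Markers of other cells were summed in each library beside the family. The 18 T cell genes came to 69.2 to 132 CPM in C57BL/6J recipients and 22.3 to 48.1 CPM in Rag2-/-γc-/- recipients. Most of this was Cd8a (48.6 to 107 against 14.9 to 41.2 CPM), which dendritic cells also express, and without it the sums overlapped (4.26 to 66.5 against 6.33 to 9.18 CPM). Of these 18 genes 2 were called higher, none was at 0 in every library, and 12 had a mean under 1 CPM. Summed CPM of 10 NK cell genes was 30.1 to 43.5 against 11 to 29, with 1 called higher. Most of this was Klrd1 (13.6 to 21.5 against 7.78 to 18.6 CPM) and Klrk1 (10.3 to 19.5 against 2.45 to 7.82 CPM). No other gene of the list exceeded 4.24 CPM, the level of Klrb1c in Rag2-/-γc-/- library 7. Klrb1c was at most 1.19 CPM in C57BL/6J recipients, and Ncr1 at most 0.214 CPM.

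The 13 macrophage genes came to 306 to 798 against 828 to 1330 CPM, with 1 called higher and 3 lower. Most of this was the haem oxygenase gene Hmox1 (269 to 545 against 621 to 1120 CPM). Without it the sums overlapped (37.1 to 252 against 206 to 417 CPM), as did C1qa, C1qb and C1qc, and Timd4 was at 7.06 to 17.9 against 0.751 to 5.47 CPM. The 12 B and plasma cell genes came to 14.7 to 173 against 41.1 to 53.2 CPM, with 2 called higher and 1 lower. Most of the Rag2-/-γc-/- sum was Cd22 (6.89 to 30 against 37.7 to 49.5 CPM), and without it the sums did not overlap (7.13 to 143 against 2.63 to 3.79 CPM). The 12 dendritic cell genes had a high sum in all libraries, at 3220 to 4270 against 2630 to 3440 CPM. Most of this was Wdfy4 (1960 to 2190 against 1640 to 1960 CPM), and 3 of the 12 genes had a mean under 1 CPM. The other lists overlapped between groups, with 11 neutrophil genes at 4.55 to 31.5 against 5.72 to 30.7 CPM, 9 matched erythroid genes at 14.9 to 146 against 74.8 to 243 CPM, and 12 endothelial and stromal genes at 1.48 to 2.46 against 0.882 to 1.95 CPM.

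The 5 T cell receptor and CD3 genes of the T cell list, picked after their values were seen, summed to 17.8, 6.19, 2.41, 0.566 and 2.89 CPM in C57BL/6J libraries 1, 3, 4, 5 and 6 and to 0 to 0.152 CPM in the other group. C57BL/6J library 1 had the most of these, the most of 4 B cell genes chosen likewise (108 CPM, against 1.31 to 14.8 in the other C57BL/6J libraries and 0.568 to 1.03 in Rag2-/-γc-/- libraries), and the highest Gbp2, Gbp3, Gbp5, Gbp6 and Gbp7. Library 5 had the least of both sets and had 6.03 CPM of Gbp2. Without library 1, Gbp2 was at a log2 fold change of 3.92, Gbp3 at 2.51, Gbp5 at 2.45, Gbp6 at 2.64 and Gbp7 at 0.77, and the first 4 were still called. The part of admixed lymphocytes in the family's level was not tested beyond these values.

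**Figure D5:**
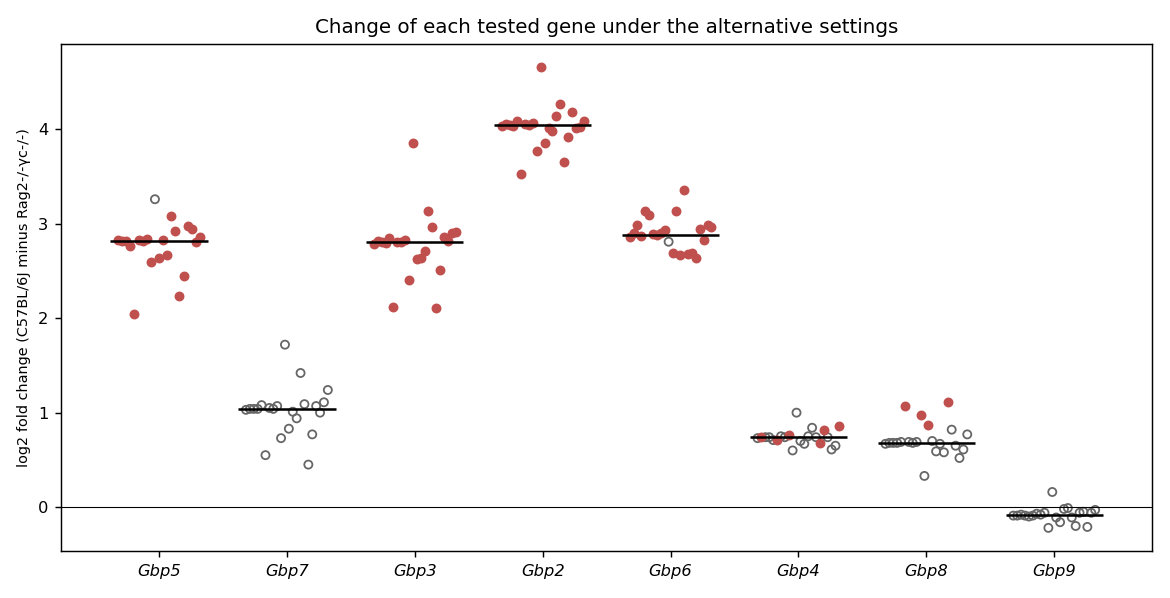
Log2 fold change of each tested gene (y axis, C57BL/6J minus Rag2-/-γc-/-) in up to 22 alternative settings, one point each, with the reported value as a black line. Filled red points passed the test and open ones did not. Gbp2 and Gbp3 passed in 22 of 22 settings, Gbp4 in 6, Gbp8 in 4, and Gbp7 and Gbp9 in 0.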

How the data were processed

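RNA of sorted GFP+ spleen cells from 5 C57BL/6J and 5 Rag2-/-γc-/- secondary recipients was selected for poly(A) and sequenced as single reads, per the labels' protocols. The authors deposited expected counts per Ensembl gene, estimates that share out a read with several possible genes among these. Cutadapt 1.11, STAR 2.5.2a, RSEM 1.2.30, edgeR and build GRCm38 are named, per the submitters' processing notes; the sources used here do not state filters, strand or annotation release.

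Counts were rounded (15.3 to 17.34% of a library's values were not whole) and tested with edgeR 4.0.16 (R 4.3.3): TMM, filterByExpr (minimum count 10, minimum total 15), quasi-likelihood F test on the group alone, Benjamini-Hochberg over the 13966 of 38215 genes that passed, threshold 0.05. Log2 fold changes are positive where C57BL/6J recipients were higher, and SE is the unshrunken coefficient over the square root of F. The fit was tested on simulated data. Alternatives were RLE and upper quartile scaling, DESeq2 1.42.0, limma 3.58.1 voom with and without sample weights, other filters, robust dispersion, and leaving out libraries.

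Family rows were matched to GENCODE M21 by symbol and position, since 4 identifiers (Gbp1, Gbp5, Gbp6, Gbp10) differ between releases. TPM values and Pearson correlations are descriptions. Of 164 entries in the 9 pathway lists 159 were matched, and of 99 in the 8 marker lists 98. The members, lists and tests were chosen with earlier results of these data known. All members were named, with fixed genes of the interferon pathway, up to 4 called genes with the smallest adjusted p of each list, the nearest genes beside each cluster and the 6 genes most like Gbp2 and Gbp9. Some genes under this rule are not reported here.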

Additional observations from a re-analysis of the deposited data

Results flagged for a closer look

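Gbp3 in C57BL/6J library 1 (2.96 CPM) lay far above the other 4 libraries of its group, which were at 1.18 to 1.62 CPM. Gbp9 in C57BL/6J library 4 (17.7 CPM) lay far above its group, where the other 4 were at 11.3 to 12.3 CPM. Both were found by Dixon's test at the 95% level among 18 groups of 5 values checked, 2 of which passed it. Chance alone flags about 1 in 20 groups.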

How the results depend on the processing

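No paired analysis was possible because the library numbers of the 2 groups do not overlap and the labels give no batch. Gbp2 and Gbp3 passed in 22 of 22 alternatives (log2 fold changes of 3.53 to 4.66 and 2.11 to 3.86), Gbp6 in 21 of 22 and Gbp5 in 20 of 21, since a filter of 1 CPM in 5 libraries left Gbp5 out. The number of members called higher was 2 to 6, and none was called lower in any alternative. It was 6 by voom with sample weights, where 23.7% of all tested genes were called higher. It was also 6 without C57BL/6J library 1 and Rag2-/-γc-/- libraries 10 and 11, where 23.5% were. It was 2 without Rag2-/-γc-/- libraries 7, 8 and 9, where 1.01% were. In that setting Gbp5 (3.26) and Gbp6 (2.81) no longer passed and Gbp9 turned to 0.16. Gbp4 passed with upper quartile scaling (0.76), DESeq2 (0.74), voom with sample weights (0.71) and without C57BL/6J library 1 and Rag2-/-γc-/- libraries 10 and 11 (0.68), and was at 0.61 to 0.86 when each library was left out in turn. Gbp8 passed with voom with sample weights (1.07), without Rag2-/-γc-/- libraries 10 and 11 (0.97) and without these and C57BL/6J library 1 (1.11), and was at 0.52 to 0.87 with each library left out.

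Genes of the pathway lists called higher numbered 18, but 32 by voom with sample weights and 31 without C57BL/6J library 1 and Rag2-/-γc-/- libraries 10 and 11; those called lower numbered 17, but 28 by DESeq2, 53 by voom with sample weights, 41 without libraries 10 and 11, 47 without these and C57BL/6J library 1, and 0 without libraries 7, 8 and 9. With each library left out in turn they numbered 10 to 23 higher and 3 to 30 lower. The cause was not tested. Over all genes, DESeq2 called 803 higher and 1155 lower and voom with sample weights 3306 and 3217. Without C57BL/6J library 1 and Rag2-/-γc-/- libraries 10 and 11 these counts were 3372 and 3173. The share of all tested genes called higher was 23.7% by voom with sample weights and 23.5% without those 3 libraries. It was 3.32% in the reported fit, so the larger list counts came with a rise over all genes. With no filter on counts, Gbp10 had an edgeR adjusted p of 0.0682, Gbp11 of 0.286, Gbp1 of 0.044 and Ifng of 0.0383, each on few counts. Levels under about 1 CPM rest on few reads, and reads of Gbp6, Gbp10 and Gm43302 cannot be told apart over most of their length.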
